A study of Mus musculus with 6 samples.

Results

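The choroid plexus is the folded epithelium in the brain ventricles that makes cerebrospinal fluid and loads it with carrier proteins, hormones and vitamins. Described here are 10 genes listed for its secreted, receptor and membrane proteins: Ttr, Enpp2, F5, Kl, Folr1, Prlr, Mfrp, Tmem72, Htr2c and Wdr86. They were taken by name from the 18614 genes of the deposited table, and all 10 were found and tested. Whether Wdr86 belongs to that class of proteins was not examined. The tissue was the subventricular zone (SVZ) of the mouse brain, a layer beside the lateral ventricle where neural stem cells reside, and its bulk RNA was sequenced. There were 3 libraries from wild-type mice (Zhx2+/+, WT 1 to 3) and 3 from mice labelled as having both copies of Zhx2 deleted (Zhx2Δ/Δ, titled KO 1 to 3). Zhx2 encodes a zinc finger and homeobox transcriptional repressor. The labels give neither the age of the mice nor how or where the deletion was made, and they do not state that each library came from its own animal. The p-values therefore measure only the spread from library to library, and that spread may be technical.

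The labels disagree in places, and the summed Zhx2 counts were not lower in the libraries titled KO. The genotype tags of KO 2 and KO 3 name ZHX3 and ZHX4, while their titles name ZHX2. Zhx2 itself had 735, 675 and 659 estimated counts in the WT libraries, against 1139, 1004 and 959 in those titled KO. The direction was opposite to that of a loss (log2 fold change 0.61, edgeR adjusted p = 0.163). Which part of the gene was deleted is not stated, and counts summed over the gene need not fall if only a part was deleted. Every direction below is that of libraries labelled KO against libraries labelled WT. Each library held between 17037152 and 17685906 estimated counts, so that 3 counts correspond to 0.162 to 0.180 CPM (counts scaled to a common library size by TMM), for counting error only. The SVZ lines the ventricle in which the choroid plexus hangs, and in bulk RNA fewer cells of a type and less RNA per cell cannot be told apart.

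Several of these proteins are made for export. Transthyretin (Ttr) carries thyroid hormone and retinol-binding protein in the cerebrospinal fluid, autotaxin (Enpp2) makes the signalling lipid lysophosphatidic acid, and coagulation factor V (F5) is a clotting cofactor. Klotho (Kl) is a membrane protein whose outer part is shed into the fluid and which serves as a co-receptor for an FGF hormone. Folr1 moves folate across the epithelium, Prlr binds prolactin, and Htr2c is a serotonin receptor that neurons also make. Mfrp is a membrane protein with a frizzled-like domain, Tmem72 a membrane protein, and Wdr86 a protein of the WD repeat type. Enpp2 is also made by oligodendrocytes, the myelin-forming cells.

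One sequence separates the transcripts of Enpp2 whose shares are described further on. It is a coding exon of 75 bases, exon 20 of 26, present in one curated RefSeq transcript and skipped in the other main one. It lies on the minus strand at chr15:54851348-54851422 (GRCm38, the same sequence as mm10). The exon is in capitals, with 20 bases of each flanking exon in lower case.
Enpp2 exon: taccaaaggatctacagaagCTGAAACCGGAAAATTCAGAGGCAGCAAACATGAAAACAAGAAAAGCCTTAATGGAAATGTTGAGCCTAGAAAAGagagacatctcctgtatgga

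RefSeq promoter sequences (GRCm38.p6) were at hand for 7 of the 10 genes, at 9 start sites, since Prlr has 3. The 250 bases before the start are shown for 3 genes whose profiles over the libraries lay close to one another, chosen after their values were seen. Both strands were searched for 6 motifs, of which only TAATTA is its own reverse complement: TAATCC for the Otx type of homeodomain site, TAATTA for other homeodomains, TGTTTAC for forkhead proteins, CCAAT for the CCAAT box, TATAAA for the TATA box and GGGCGG for the GC box. None of these overlapped another in the sequences shown, and matches are in capitals. The windows are F5, chr1:164151585-164151834, plus strand, Kl, chr5:150952357-150952606, plus strand, and Mfrp, chr9:44101520-44101769, plus strand.
F5: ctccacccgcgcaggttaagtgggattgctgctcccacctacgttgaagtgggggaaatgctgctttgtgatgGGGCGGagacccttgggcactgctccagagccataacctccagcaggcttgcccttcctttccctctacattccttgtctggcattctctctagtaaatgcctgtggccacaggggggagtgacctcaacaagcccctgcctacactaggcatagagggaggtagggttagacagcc
Kl: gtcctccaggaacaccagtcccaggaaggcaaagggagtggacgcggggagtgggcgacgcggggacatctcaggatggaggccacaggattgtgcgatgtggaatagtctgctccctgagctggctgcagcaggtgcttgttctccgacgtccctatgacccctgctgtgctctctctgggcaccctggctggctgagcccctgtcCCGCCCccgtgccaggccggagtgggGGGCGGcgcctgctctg
Mfrp: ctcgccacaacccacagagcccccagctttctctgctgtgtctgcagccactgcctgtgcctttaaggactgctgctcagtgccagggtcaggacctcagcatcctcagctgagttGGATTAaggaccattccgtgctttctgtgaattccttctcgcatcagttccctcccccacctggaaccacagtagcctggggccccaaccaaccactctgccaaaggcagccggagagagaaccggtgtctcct

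In the Mfrp window TAATCC was found on the opposite strand, its match beginning 134 bases before the start. Among the 32851 promoter windows of this length that were searched, 6.25% hold that motif, and of the 9 windows of these genes 1 did. Windows on chr18, the chromosome of Ttr, were left out of the search. The GC box was in 2 of the 9 windows, those of F5 and Kl, against 32.7% of all windows. The CCAAT motif was in 2, those of Htr2c and one start of Prlr, against 33.8%. The forkhead motif was in 1, another start of Prlr, against 3.17%, and TAATTA was in none, against 4.84%, nor was the TATA box motif, against 12.4%. These are matches of letters within short windows.

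All 10 genes were lower in the libraries labelled KO, and for each of them every KO-labelled library lay below every WT library. Such a separation was seen in 8.74% of the 15126 genes tested. Together the genes took 2.36%, 1.72% and 0.536% of all counts in the WT libraries, against 0.0503%, 0.0542% and 0.0388% in KO 1 to 3. Their log2 fold changes ran from -7.69 for Ttr to -1.18 for Htr2c, with a median of -5.52, where the median of all genes tested was 0.02. In edgeR's quasi-likelihood test none of the 10 passed an adjusted p of 0.05 (Benjamini-Hochberg), as was the case for all genes (0.0% called), and 10 of 10 had an unadjusted p under 0.05 in that direction, against 6.39% of genes. Limma-voom called 0.0% of genes, and DESeq2 called 10 of 10, against 2.02% of genes called lower. Tmem72 had no KO-labelled library above the low-count filter of 0.58 CPM and was tested through its WT level alone, so that it had to differ. The 10 genes were also chosen with earlier results of these data known, so the counts over them are a description. Without WT 3, edgeR called 8 of 10, against 0.895% of genes called lower, the exceptions being Ttr (adjusted p = 0.0767) and Htr2c (adjusted p = 0.148).

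**Figure D1:**
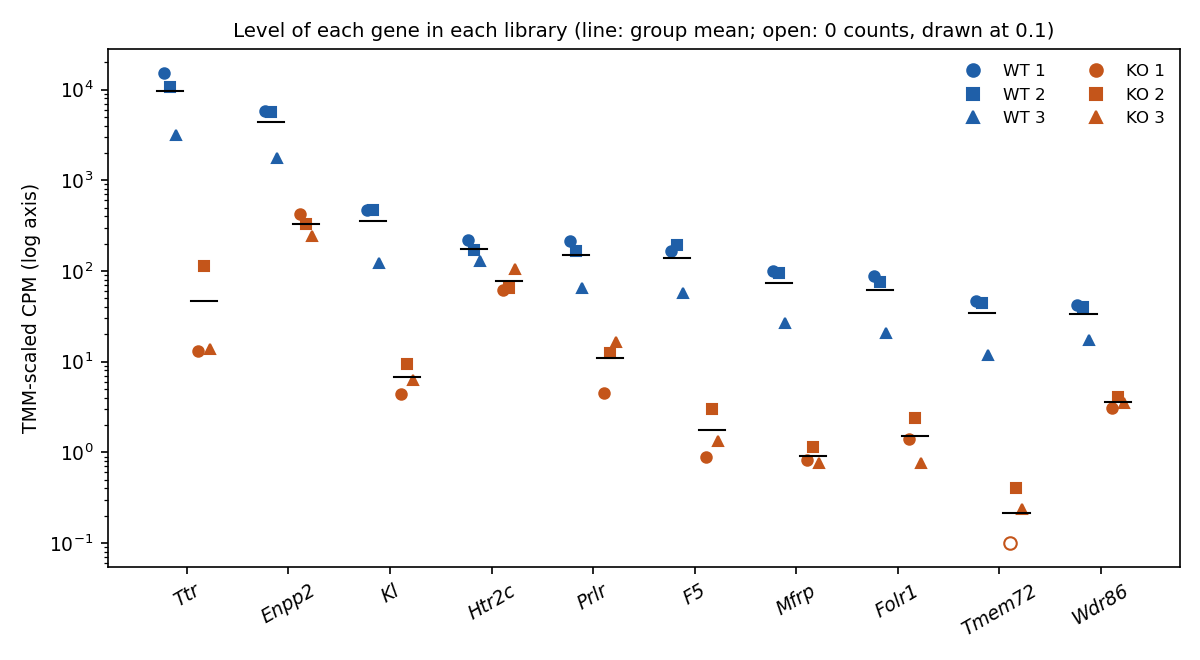
TMM-scaled CPM of each of the 10 genes on a log axis, with 1 point per library (WT blue, KO-labelled orange, shape by replicate number) and a line at each group mean; the open circle is Tmem72 in KO 1, at 0 counts. Each WT point lies above each KO-labelled point of the same gene, WT 3 is the lowest WT point in all 10 genes, and the gap is narrowest for Htr2c.

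The exported carrier Ttr had the lowest log2 fold change of the 10. The WT libraries held 15337, 10669.5 and 3133 CPM of it, against 13.02, 114 and 13.6 CPM in those labelled KO. By counts it ranked 1, 1 and 3 among all genes of WT 1 to 3, and 9938, 2032 and 9791 among those of KO 1 to 3. The groups were far apart, with the lowest WT library 27.4 times the highest KO-labelled one. KO 2 stood out among the KO-labelled libraries, at 8.79 times the level of KO 1. For Ttr the log2 fold change was -7.69 (SE 1.30, edgeR adjusted p = 0.174, DESeq2 adjusted p = 1.60e-08), from 9713 ± 6158 to 47.0 ± 58.4 CPM (SD, n = 3). Without KO 2 it was -9.51.

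Enpp2 (chr15:54838901-54952789) had 5864, 5649.8 and 1754 CPM across the WT libraries, against 427, 329 and 241 CPM across those labelled KO. The groups did not overlap, yet of the 10 genes Enpp2 had the most counts in every KO-labelled library. Its log2 fold change was -3.73 (SE 0.52, edgeR adjusted p = 0.144, DESeq2 adjusted p = 1.42e-15), and the KO-labelled mean was 7.51% of the WT mean.

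F5 (chr1:164151835-164220277) had 168, 195 and 57.7 CPM across the WT libraries, against 0.884, 2.99 and 1.35 CPM across those labelled KO. Its groups were separated by 19.3 times, lowest WT against highest KO-labelled library, and WT 2, not WT 1, was highest. The log2 fold change of F5 was -6.32 (SE 0.67, edgeR adjusted p = 0.144, DESeq2 adjusted p = 5.43e-31), and -6.96 without KO 2.

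Klotho and the folate receptor lay between these. Kl (chr5:150952607-150993817) had 466, 465 and 123 CPM across the WT libraries, against 4.42, 9.45 and 6.22 CPM across those labelled KO. Folr1 (chr7:101858331-101870788) had 88.8, 76.2 and 20.5 CPM across the WT libraries, against 1.41, 2.42 and 0.763 CPM across those labelled KO. In both genes WT 1 and WT 2 were close to each other and WT 3 lay well below them, and among those labelled KO the highest was KO 2. The log2 fold changes were -5.71 (SE 0.64) for Kl and -5.33 (SE 0.71) for Folr1, each with an edgeR adjusted p of 0.144. The DESeq2 adjusted p was 1.32e-29 for Kl and 1.09e-18 for Folr1.

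The membrane protein genes Mfrp and Tmem72 were near 1 CPM or below in each library labelled KO. Mfrp (chr9:44101770-44109187) had 101, 95.9 and 26.9 CPM across the WT libraries, against 0.825, 1.15 and 0.763 CPM across those labelled KO. Tmem72 (chr6:116691539-116716982) had 47.0, 43.8 and 11.7 CPM across the WT libraries, against 0, 0.403 and 0.235 CPM across those labelled KO, from 0, 7 and 4 estimated counts. For Tmem72 the count of 0 in KO 1 allows up to 0.177 CPM. The log2 fold changes were -6.34 (SE 0.64) for Mfrp and -7.27 (SE 0.88) for Tmem72, each with an edgeR adjusted p of 0.144. Without KO 2 that of Tmem72 was -8.10. The DESeq2 adjusted p was 7.86e-33 for Mfrp and 6.73e-09 for Tmem72.

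Of the hormone and transmitter receptors, Prlr kept 7.47% of its WT mean and Htr2c 44.2%. Enpp2 (7.51%) and Wdr86 (10.7%), which are not receptors, kept as much as Prlr or more. Prlr (chr15:10177238-10349190) had 215, 166 and 65.4 CPM across the WT libraries, against 4.54, 12.3 and 16.4 CPM across those labelled KO, with the order of the KO-labelled libraries unlike that of Kl or Ttr. Its log2 fold change was -3.74 (SE 0.62, edgeR adjusted p = 0.168, DESeq2 adjusted p = 5.43e-11). Htr2c (chrX:146962464-147197277) had 221, 172 and 129 CPM across the WT libraries, against 61.6, 64.2 and 106 CPM across those labelled KO. The groups were separated by little, WT 3 being 1.22 times KO 3. Its log2 fold change was -1.18 (SE 0.28, edgeR adjusted p = 0.284, DESeq2 adjusted p = 0.00322).

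Wdr86 (chr5:24696900-24730698) had 42.4, 40.0 and 17.3 CPM across the WT libraries, against 3.12, 4.09 and 3.46 CPM across those labelled KO. Its KO-labelled libraries differed by no more than 1.31 times from one another, the narrowest range among the members. The log2 fold change was -3.22 (SE 0.37, edgeR adjusted p = 0.144, DESeq2 adjusted p = 2.46e-15). For each of the 10 genes the exact permutation test over the 6 libraries gave p = 0.1 (two-sided), the smallest that 3 against 3 allows.

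The WT libraries differed among themselves in the same direction for all 10 genes: WT 3 was the lowest WT library in 10 of 10, and WT 1 the highest in 9, F5 being the exception. The ratio of WT 1 to WT 3 was 4.89 for Ttr, 4.33 for Folr1, 4.01 for Tmem72, 3.78 for Kl, 3.75 for Mfrp, 3.34 for Enpp2, 3.28 for Prlr, 2.91 for F5, 2.45 for Wdr86 and 1.71 for Htr2c. A list of 10 other epithelial genes (Kcne2, Kcnj13, Slc4a5, Clic6, Sostdc1, Otx2, Cldn2, Aqp1, Slc13a4 and Steap1) had a ratio of 3.66. Among the KO-labelled libraries KO 2 was the highest for 7 genes, KO 3 for Prlr and Htr2c, and KO 1 for Enpp2.

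Between genes, levels are compared as length-scaled FPKM, the deposited unit, summed over a gene's transcripts. In WT the order by mean FPKM was Ttr (8212 ± 5370.01), Enpp2 (1379 ± 729.8), Kl (69.0 ± 39.0), Folr1 (58.3 ± 35.2), Htr2c (42.8 ± 12.1), F5 (18.9 ± 9.70), Mfrp (17.6 ± 9.85), Prlr (16.6 ± 8.88), Wdr86 (13.8 ± 6.76) and Tmem72 (8.72 ± 5.10; SD, n = 3). From Kl downwards neighbours in this order overlapped within 1 SD, other than Htr2c and F5, while Ttr and Enpp2 stood above the rest. In KO-labelled libraries the order by mean opened with Enpp2 (100.5 ± 27.0 FPKM), Ttr (39.1 ± 48.8 FPKM) and Htr2c (19.1 ± 5.98 FPKM). The place of Ttr came from KO 2. Ttr had 10.5, 95.4 and 11.3 FPKM in KO 1 to 3, against 14.9, 16.3 and 25.9 FPKM for Htr2c. The other 7 genes had mean FPKM between 0.0567, for Tmem72, and 1.44, for Folr1.

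**Figure D2:**
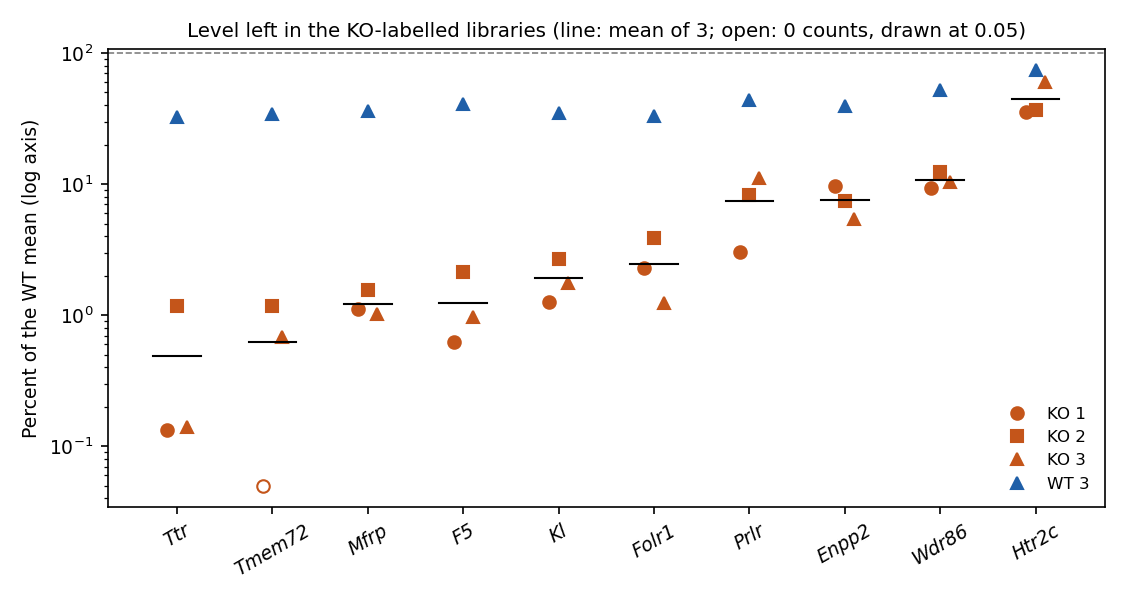
Level of each gene in KO 1 to 3 (orange) and in WT 3 (blue triangle) as percent of the WT mean, on a log axis, with a line at the KO-labelled mean and a dashed line at the WT mean; the open circle is Tmem72 in KO 1, at 0 counts. The means run from 0.484% for Ttr to 44.2% for Htr2c, and Prlr, Enpp2, Wdr86 and Htr2c form the upper end.

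Of the WT mean, the libraries labelled KO held 0.484% for Ttr, 0.622% for Tmem72, 1.22% for Mfrp, 1.24% for F5, 1.91% for Kl and 2.48% for Folr1. The share was 7.47% for Prlr, 7.51% for Enpp2, 10.7% for Wdr86 and 44.2% for Htr2c, and which cells held that RNA was not tested. The list of other epithelial genes summed to 1061, 871 and 289.9 CPM in the WT libraries, against 34.3, 94.0 and 61.5 CPM in KO 1 to 3, which is 8.54% of the WT mean. Within that list the channel and transporter genes Kcne2 and Slc4a5 were under 1 CPM in every KO-labelled library, while Clic6, Otx2 and Slc13a4 kept between 4.83 and 37.3 CPM.

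A straight line was drawn through the 3 WT libraries, of each gene's CPM against that sum, and read at the sums of KO 1 to 3. It uses no KO-labelled level of the gene itself, and with 3 points it is a description. For Enpp2 the line gave 431, 768 and 585 CPM, and the measured 427, 329 and 241 CPM lay at or below it. For Htr2c it gave 97.3, 104 and 100.3 CPM, above the measured levels in KO 1 and KO 2 and below the 106 CPM of KO 3. For Wdr86 it gave 9.16, 11.2 and 10.1 CPM, and for Prlr 15.4, 26.7 and 20.6 CPM. All 3 KO-labelled libraries lay below the line in both genes, and likewise for F5, Kl, Mfrp and Tmem72. The position against the line may depend on the makeup of the list, which was not tested. In KO 1, Clic6, Otx2 and Slc13a4 held 14.8, 4.83 and 10.3 CPM of the sum of 34.3 CPM. A sum without these genes was not tried. For Folr1 only KO 2 lay below the line. For Ttr no KO-labelled library did, its line being negative at these sums. At a sum of 0 the line reached 93.6 CPM for Htr2c, 237 CPM for Enpp2, 18.1 CPM for F5, 8.98 CPM for Prlr and 7.99 CPM for Wdr86. It ended below 0 for Kl (-2.65 CPM), Folr1 (-5.03 CPM), Mfrp (-0.393 CPM), Tmem72 (-1.36 CPM) and Ttr (-1509 CPM). With Ttr in place of the list it reached 103 CPM for Htr2c, 984 CPM for Enpp2, 44.0 CPM for F5, 28.9 CPM for Prlr and 12.4 CPM for Wdr86 at 0. It then ended above 0 for Kl (62.7 CPM), Folr1 (5.81 CPM), Mfrp (12.9 CPM) and Tmem72 (4.82 CPM).

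**Figure D3:**
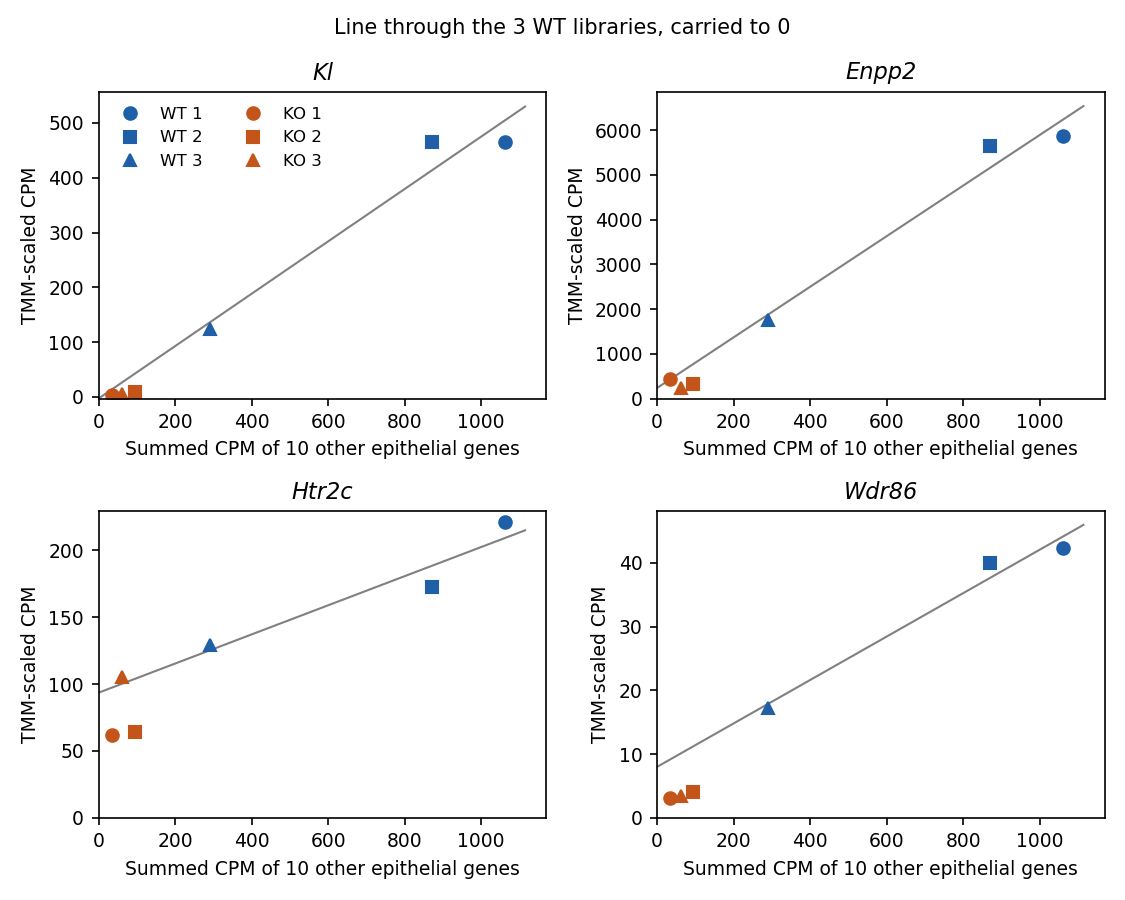
CPM of Kl, Enpp2, Htr2c and Wdr86 against the summed CPM of 10 other epithelial genes, with 1 point per library and the line through the 3 WT points carried to 0. The line meets the axis near 0 for Kl, at 237 CPM for Enpp2, at 93.6 CPM for Htr2c and at 7.99 CPM for Wdr86, and the KO-labelled points lie at or below it except KO 3 for Htr2c.

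In Enpp2, Wdr86 and Prlr the makeup by transcript differed between the groups. The table splits reads between overlapping RefSeq transcripts, and such splits are estimates. For Enpp2 the curated transcript that skips the 75-base exon shown above had 4332, 3953 and 1182 CPM across the WT libraries, against 222, 183 and 122 CPM across those labelled KO, or 5.56% of the WT mean. The curated transcript that holds the exon had 289, 325 and 177 CPM across the WT libraries, against 131, 100.2 and 93.2 CPM across those labelled KO, or 41.0% of the WT mean. Of these 2 transcripts together, the one with the exon made up 6.25%, 7.59% and 13.04% across the WT libraries, against 37.1%, 35.4% and 43.4% across those labelled KO. The share was thus higher in each KO-labelled library than in each WT library, by 29.7 percentage points in the mean (exact permutation p = 0.1, two-sided), and within WT it was highest in WT 3, the WT library with the least RNA of the 10 genes.

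Wdr86 showed a like split. Its 4 coding transcripts had 33.9, 29.4 and 9.92 CPM across the WT libraries, against 0.240, 1.20 and 0.130 CPM across those labelled KO, which is 2.14% of the WT mean. A non-coding RNA model of the same gene had 8.49, 10.5 and 7.37 CPM across the WT libraries, against 2.88, 2.91 and 3.34 CPM across those labelled KO, and made up 92.3%, 70.8% and 96.2% of the gene's counts there. The coding share of 2.14% rests on 4.07, 20.82 and 2.22 estimated counts in KO 1 to 3. Most of these were in KO 2, and KO 3 was under 3 counts. As a mean that share lay between those of Kl (1.91%) and Folr1 (2.48%), but with so few counts its place is uncertain. In RefSeq the gene's span overlaps that of Nub1 by 13479 bases. No source used here states whether the counting used strand, so reads of the non-coding model and of Nub1 may not be told apart. Nub1 had a mean of 125 ± 13.5 CPM over the WT libraries, against 129.97 ± 4.39 CPM over those labelled KO (SD, n = 3).

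For Prlr, 1 predicted transcript model took 47.6%, 73.5% and 85.5% of the gene's counts across the WT libraries and was listed at 0 in KO 1 to 3. Another predicted model of nearly the same length took 38.8%, 16.2% and 0.241% in WT and all, 96.0% and 93.2% of them across KO 1 to 3. The split between these 2 models varied widely among the WT libraries themselves. The 3 curated transcripts of Prlr had 28.3, 13.4 and 9.26 CPM across the WT libraries, against 0, 0.494 and 1.12 CPM across those labelled KO. Both main transcripts of Htr2c were present in every library, the curated one with 52.4%, 55.1% and 44.3% of counts across the WT libraries, against 40.9%, 34.6% and 44.9% across KO 1 to 3. Ttr and F5 each have a single transcript in the table, and Kl had at least 99.8% of its counts in its curated transcript in every library.

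**Figure D4:**
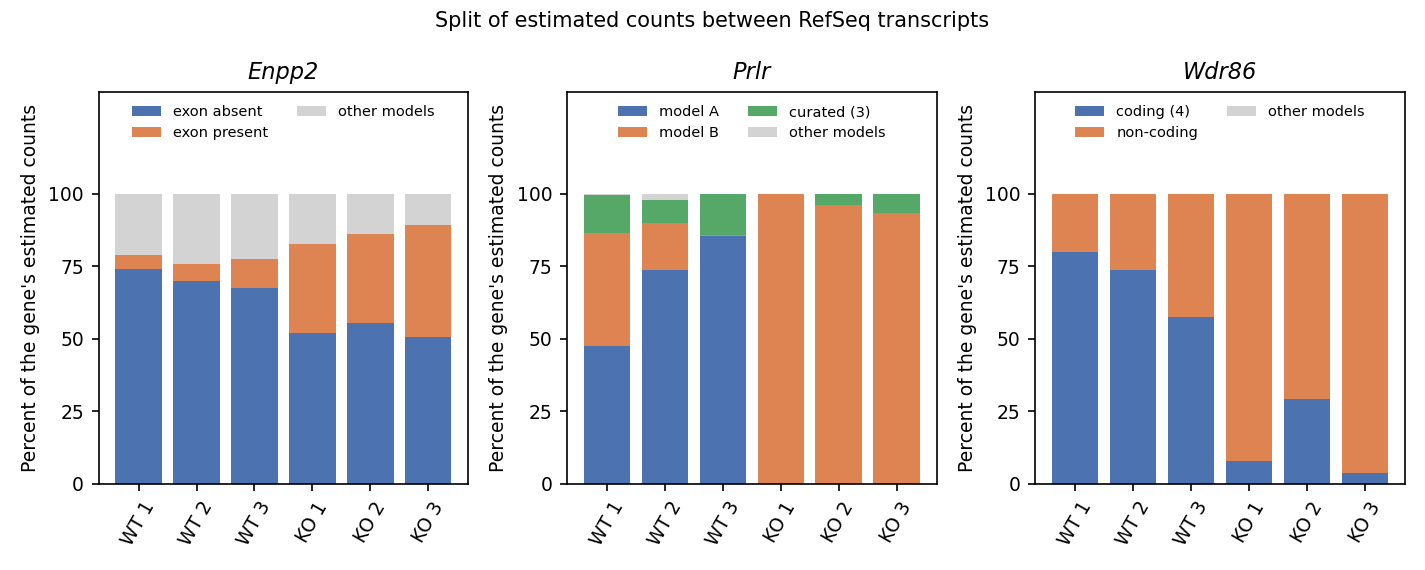
Percent of each gene's estimated counts given to groups of RefSeq transcripts in WT 1 to 3 and KO 1 to 3, for Enpp2 (curated transcripts without and with the 75-base exon), Prlr (predicted models A and B and 3 curated transcripts) and Wdr86 (4 coding transcripts and 1 non-coding model). The exon-bearing share of Enpp2 goes from 4.93% in WT 1 to 38.7% in KO 3, and the non-coding share of Wdr86 from 20.04% in WT 1 to 96.2% in KO 3.

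Mfrp shares its span with C1qtnf5, the gene of a complement-type secreted protein whose RefSeq span covers all 7418 bases of Mfrp, so counts of the pair are uncertain. C1qtnf5 had 108, 98.7 and 33.9 CPM across the WT libraries, against 12.6, 13.2 and 12.9 CPM across those labelled KO. Its WT libraries followed the order of Mfrp, and its KO-labelled libraries were nearly level. The log2 fold change of C1qtnf5 was -2.63 (SE 0.43, edgeR adjusted p = 0.167). Prss56, a protease gene of the eye, had 0.41 (SE 0.80).

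Other genes of the members' pathways are given list by list. None passed in edgeR over all genes, and the counts here use an unadjusted p under 0.05, which 9.07% of all genes reached. Of 11 genes for thyroid hormone and retinol handling, 3 were lower and 1 higher. Slco1c1, a thyroid hormone transporter gene, had 130.3, 142 and 91.5 CPM across the WT libraries, against 68.2, 58.1 and 54.0 CPM across those labelled KO. Its groups did not overlap, and WT 3 was the lowest WT library, as for Ttr. The log2 fold change of Slco1c1 was -1.01 (SE 0.19, edgeR adjusted p = 0.178, DESeq2 adjusted p = 3.21e-04).

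Of 9 receptors and phosphatases for lysophosphatidic acid, the product of Enpp2, none reached that p, and the list's median log2 fold change was 0.02. Lpar4 had -0.77 (SE 0.35) and Plpp1 -0.38 (SE 0.21). Of the relatives of Enpp2, 0 of 5 reached it, with Enpp4 at -0.28 and Enpp6 at -0.30. Of 8 other genes of folate transport and use, the importer gene Slc46a1 was lower (-0.44, SE 0.18), the only 1 of 8, and Slc19a1 had -0.45 (SE 0.20). Of 7 tested genes around klotho, 1 was higher, the receptor gene Fgfr3 (0.34, SE 0.12), and Fgfr2 had -0.39 (SE 0.22).

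None of 6 tested genes of prolactin and growth hormone signalling reached that p, with Socs2 at 0.26 and Cish at -0.24. The same held for 9 tested coagulation genes, where F13a1 had 0.58 and F2r -0.25, and for 11 tested serotonin receptors, where Htr3a had 0.66 and Htr5a 0.19. Of the coagulation list 6 of 15 genes were too low to test.

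Genes with profiles most like the mean profile of the 10 were named by the root mean square difference of centred log2 CPM over the 6 libraries. The 8 nearest were Col8a1 (0.32), Steap1 (0.33), Aqp1 (0.39), Wdr72 (0.48), Dpep1 (0.48), Lmx1a (0.49), Sostdc1 (0.50) and Oca2 (0.50), of which Steap1, Aqp1 and Sostdc1 are on the list of other epithelial genes. Col8a1, a collagen gene, had 64.7, 56.7 and 18.9 CPM across the WT libraries, against 0.943, 2.13 and 2.23 CPM across those labelled KO. Lmx1a, a dorsal midline homeobox gene, had 6.33, 5.10 and 1.45 CPM across the WT libraries, against 0, 0.346 and 0 CPM across those labelled KO. Among the members Kl lay closest to the mean profile (0.31) and Htr2c (1.95) and Ttr (1.80) farthest from it. The closest pair of members was Kl and Mfrp (0.31).

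Markers of other cell types gave the following values beside these results, and their part in them was not tested. The 10 other epithelial genes were all lower, with a median log2 fold change of -5.42. All 8 ependymal genes were lower, 6 of them at an unadjusted p under 0.05 in edgeR. Of all genes tested, 6.39% reached that p in the lower direction and 9.07% in either direction. The ependymal sum was between 165 and 236 CPM over the WT libraries, against 82.4 to 121 CPM over KO 1 to 3. Of 6 fibroblast and stroma genes 3 were lower, 1 of them at that p (Igf2, log2 fold change -1.44), and the sum was 361 to 947 CPM over the WT libraries, against 179 to 499 CPM. Of 7 endothelial genes 4 were lower, 2 of them at that p (Kdr, -0.88, and Plvap, -0.85), with sums of 155 to 213 CPM, against 152 to 189 CPM. Of 5 astrocyte genes 2 were lower, none at that p, and of 5 microglia genes all were higher, 1 of them at that p (C1qa, 0.47), with sums of 1636 to 2297 CPM and 208 to 286 CPM in WT, and 2082 to 2199 CPM and 279 to 336 CPM in KO-labelled libraries. No listed marker was at 0 in all 3 KO-labelled libraries.

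For Enpp2 the oligodendrocyte list is given beside the result. The WT libraries summed to 14655, 14440.2 and 14368 CPM and were almost level, while KO 1 to 3 summed to 20244, 11972 and 8771 CPM, in the same order as for Enpp2. Of its 10 genes 9 were on the negative side (median log2 fold change -0.08), and none reached an unadjusted p under 0.05. Ermn had -0.19 (SE 0.30). For Htr2c the striatal neuron list is given: WT 1 to 3 summed to 519, 8126 and 2289.7 CPM, and KO 1 to 3 to 3639, 4713 and 4695 CPM. WT 1, the library with the most Htr2c, had the least of these markers and the largest sum of the other epithelial genes (1061 CPM). Among the libraries labelled KO, KO 1 had the least Htr2c (61.6 CPM) and the least of these markers. The source of the Htr2c RNA was not tested. None of the 9 striatal genes reached an unadjusted p under 0.05, with Drd2 at 0.51 (SE 0.69) and Tac1 at 0.53 (SE 0.86).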

How the data were processed

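The deposited table gives, for 61481 RefSeq transcripts, estimated counts per library and FPKM, in which the authors allowed for transcript length and depth, as the deposited values show. Per the submitters' processing notes, mm10 was the build and limma 3.40.6 a tool. The sources used here name no aligner or quantifier. Groups came from the titles. Estimated counts were added up by NCBI gene number, rounded and named from RefSeq (GRCm38.p6, 18489 of 18614 genes). No pair of libraries agreed within sampling noise (chi-square per degree of freedom 21.7 to 95.4).

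The main test was edgeR 4.0.16 (R 4.3.3, TMM, filterByExpr with a minimum count of 10, robust quasi-likelihood, group only, two-sided), adjusted by Benjamini-Hochberg over 15126 genes. CPM are TMM-scaled. DESeq2 1.42.0, limma-voom (3.58.1) and other settings were alternatives, and the procedure was tested on simulated data. The 10 genes and all lists were chosen with earlier results of these data known. Named genes are the 10, up to 2 per pathway list by p (also for oligodendrocyte and striatal markers), and the 8 nearest profiles (prior count 2). Zhx2, Nub1, Igf2, Kdr, Plvap, C1qa and the epithelial genes named for their levels fall outside that rule and were chosen after their values were seen. Some genes that the rule names are not reported here.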

Additional observations from a re-analysis of the deposited data

How the results depend on the processing

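All 10 genes kept a negative log2 fold change in each of 15 alternatives, and all 10 had an unadjusted p under 0.05 in each; in the 1 that sets KO 1 alone against WT, the spread comes from the WT libraries only, and the lone library is assumed to vary like them. There Ttr had -9.54, F5 -7.30, Kl -6.31 and Prlr -5.03. The number passing the adjusted threshold over all genes was 0 of 10 in 13 alternatives, 10 with DESeq2 and 8 without WT replicate 3, and the number of genes called was 0, 311 and 137. With single libraries left out it thus ranged from 0 to 8 for these genes and from 0 to 137 for all genes. The cause was not tested. The median log2 fold change was between -5.93 and -5.21, and the adjusted p of single genes between 7.86e-33 and 0.827, the latter with KO 1 alone against WT. With Ttr as the reference the line through WT changed sign for Kl (62.7 CPM), Folr1 (5.81 CPM), Mfrp (12.9 CPM) and Tmem72 (4.82 CPM). With the replicate number as a block, edgeR called 0 genes and 0 of these 10 and the median was -5.40. Same-numbered libraries did not deviate together (correlations of -0.16, -0.07 and -0.04), and no library correlated best with its own number, so the numbers were not treated as pairs. Depth limits Tmem72 most: its KO-labelled libraries held 0, 7 and 4 counts.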
